A study of Mus musculus with 2 samples.

Results

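The S100 genes encode small proteins that bind calcium through a pair of EF-hand loops and mostly work as dimers. The 8 genes described here, S100a1, S100a4, S100a6, S100a8, S100a9, S100a10, S100a11 and S100a13, were taken by gene name from the deposited count table, in which they are 8 of 54751 gene rows. Sequencing covered 2 RNA libraries. Both came from myeloid-derived suppressor cells (MDSCs) of wild-type mouse bone marrow, kept in RPMI medium with fetal bovine serum and collected on day 6. The control library came from cells given vehicle, and the other from cells given mrWNT2, as the labels spell it, on days 0 and 3. WNT2 is a secreted WNT ligand. The labels give neither the dose, nor the culture cytokines, nor the number of mice. The study's question was how mrWNT2 alters gene expression in these cells. Each group has 1 library, so there is no spread between replicates and no test. Every comparison below is between these 2 libraries, not between the conditions.

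S100a8 and S100a9 pair to form calprotectin, a major protein of the neutrophil cytosol. Calprotectin binds zinc and manganese away from microbes, carries arachidonic acid to the phagocyte oxidase, and acts as an alarm signal through TLR4 and RAGE once released. In the MDSC field both genes serve as markers of the cells. The other members act mainly inside cells, where calcium lets them bind annexins, myosin or other target proteins. S100a10 is the exception in having lost calcium binding, and it sits on annexin A2 permanently.

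The libraries held 13474453 counts (control) and 12621110 counts (mrWNT2). A gene's level within a library is given as counts scaled to the library total (CPM, adjusted by edgeR's TMM factors), and levels are compared between genes only by the authors' length-scaled fragment values (FPKM). A gene counts as measured with a mean of at least 1 CPM. A total of 12856 genes met this minimum, and their median log2 ratio, mrWNT2 over control, was 0.02, with the middle 50% of genes between -0.19 and 0.22. The intervals given are 95% Clopper-Pearson intervals from the 2 counts; they cover counting error only, and the reads carry no molecular identifiers. The neutrophil marker list fitted the myeloid label, with all 10 markers measured and a summed level of 43632 CPM in the control and 33691 CPM in the mrWNT2 library. Most of that sum came from Ngp, Ltf and Mmp8 (21138, 11488 and 7548 CPM in the control). Sums for other lineages follow as control then mrWNT2, and those of the monocyte and macrophage lists are given further on. The sums are not scaled by gene length or list size, so they do not rank the lineages. The B cell list summed to 4.71 and 4.32 CPM, with 2 of 6 markers measured (Cd79a and Cd79b) and Pax5 at 0 in both libraries. The T and NK cell list summed to 21.7 and 22.1 CPM, nearly all of it Nkg7 (270 and 263 counts), with Ncr1 at 0. The dendritic cell list summed to 32.9 and 28.2 CPM, with 2 of 7 measured (Itgax and Clec9a) and Siglech at 0. The epithelium list summed to 43.0 and 29.1 CPM, nearly all of it Cdh1 (572 and 364 counts), with Krt8 at 0. The eosinophil list summed to 953 and 1122 CPM, the megakaryocyte list to 530.2 and 256 CPM and the basophil and mast cell list to 243 and 207 CPM. Most of the megakaryocyte difference came from Pf4 (414 and 150 CPM). Ppbp had 44.9 and 36.3 CPM, while Itga2b (68.1 and 66.9) and Gp9 (2.99 and 2.91) hardly differed. Stroma and endothelium summed to 22.8 and 8.41 CPM, and erythroid markers to 0.823 and 0.944 CPM.

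Transcripts of the 8 members made up 4.30% of all counts in the control library (95% interval 4.29 to 4.31) and 3.65% in the mrWNT2 library (3.64 to 3.66). On the TMM scale the log2 ratio was -0.26. Per length, they made up 18.8% of the summed FPKM in the control and 16.2% in the mrWNT2 library. S100a8 and S100a9 alone held 4.08% and 3.48% of the counts, a 1.19-fold lower sum. The other 6 members together had 29851 and 21165 counts, a 1.34-fold lower sum (1.32 to 1.37).

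Of the 8 members, 7 were measured and S100a4 was not. The ratio of mrWNT2 to control lay below 1 for 6 of them (47.7% of all measured genes) and above 1 for S100a10 alone; scaled by the median of the genes averaging 1000 CPM or more, S100a13 also came out above 1 (log2 ratio 0.03). For 4 members (S100a8, S100a9, S100a6 and S100a11) the counting interval lay wholly below 1, a position taken by 18.8% of all measured genes and by 54.9% of the 71 genes averaging 1000 CPM or more, whose many counts give narrow intervals. For 0 members did it lie above 1 (background 21%). None of the 7 reached a 1.5-fold higher value (7.62% of all measured genes did) or a 1.5-fold lower one (7.02%), and none reached 2-fold in either direction (3.38% higher, 2.49% lower). The median log2 ratio of the 7 measured members was -0.20, against 0.02 for all measured genes and -0.07 for the 71 most abundant.

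S100a9 (ENSMUSG00000056071) had the highest FPKM of any gene in both libraries. Its counts were 338999 in the control and 279765 in the mrWNT2 library, which is 25349 and 22000 CPM, or 49131 and 41657 FPKM. The gene took 2.52% of all counts in the control and 2.22% in the mrWNT2 library. The mrWNT2 library was therefore the lower of the pair, by 1.15-fold (1.15 to 1.16; log2 ratio -0.20). Because these are bulk samples, fewer cells of a type and less RNA per cell cannot be told apart.

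S100a8 (ENSMUSG00000056054), which encodes the other calprotectin subunit, had 210620 counts in the control and 160073 in the mrWNT2 library. Its CPM was 15750 and 12588, and its FPKM of 22960 and 17928 held rank 3 among all genes in both libraries. It was 1.25-fold lower in the mrWNT2 library (1.24 to 1.26; log2 ratio -0.32), a wider gap than that of S100a9. The FPKM of S100a8 divided by that of S100a9 was 0.467 in the control and 0.430 in the mrWNT2 library. The log2 difference between these ratios was -0.12 (-0.13 to -0.11) and does not depend on how the libraries are scaled. The level of the ratio does depend on gene length: the deposited length of S100a8 joins the exons of all its transcripts (694 bases), while its principal transcript has 486. With principal transcript lengths the ratio was 0.663 and 0.611.

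Other genes also differed between the libraries. In the neutrophil marker list, 4 of 10 genes passed 1.5-fold downward and 0 upward. The shares were 7.02% and 7.62% for all measured genes, and 2.95% and 4.12% for those averaging at least 10 CPM. Of the 10, 9 had an interval below 1. So had 18.8% of all measured genes and 54.9% of the 71 averaging 1000 CPM or more. Ly6g had 2315 counts in the control and 1098 in the mrWNT2 library. Retnlg was 3.06-fold lower, Mmp9 1.98-fold and Ltf 1.55-fold lower. The abundant granule gene Ngp was 1.28-fold lower, and Mmp8 1.04-fold lower. Camp was 1.32-fold, Cxcr2 1.09-fold and Itgam 1.04-fold lower. Csf3r was 1.01-fold lower with an interval that holds 1. In the macrophage list 6 of 8 genes were at least 1.5-fold lower and 1 higher, with a summed level of 1694 and 1107 CPM. In the monocyte list 2 of 6 measured genes passed 1.5-fold upward and 0 downward, with sums of 3230 and 3695 CPM. The part of cell composition in the S100 ratios was not tested.

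**Figure D1:**
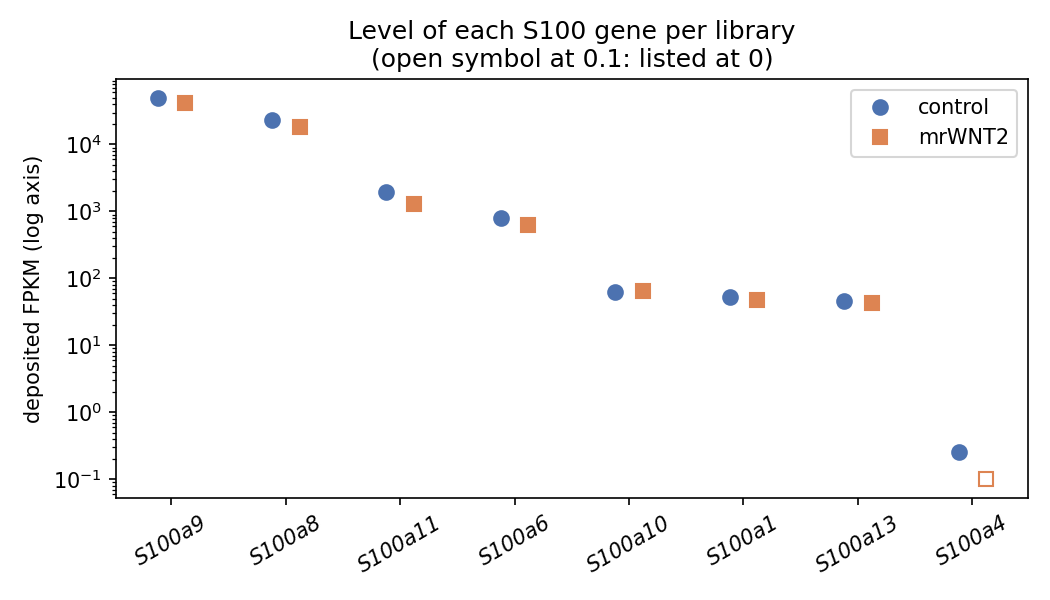
Deposited FPKM (log axis) of each of the 8 S100 genes in the control library (circles) and the mrWNT2 library (squares), 1 library each. S100a9 and S100a8 lie at 17928 FPKM or above in both libraries, S100a11 and S100a6 between 619 and 1966, and S100a10, S100a1 and S100a13 between 43.0 and 65.5; the open symbol marks S100a4, listed at 0 in the mrWNT2 library.

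S100a11 (ENSMUSG00000027907) encodes calgizzarin, which binds annexin A1 in the presence of calcium. It had the lowest ratio of the measured members. Its counts were 13280 in the control and 8433 in the mrWNT2 library, or 993 and 663 CPM, and its FPKM was 1966 and 1283. The mrWNT2 library was 1.497-fold lower (1.46 to 1.54; log2 ratio -0.58), just short of the 1.5-fold line. Of all measured genes, 7.08% had a ratio as low or lower. For the 8543 genes averaging at least 10 CPM, the 5th percentile of the log2 ratio was -0.44, and S100a11 lay below it. With DESeq2 size factors, upper quartile factors or the deposited FPKM the gene passed that line, so the call of 0 members at least 1.5-fold lower becomes 1.

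Reads from S100a11 can also match the processed pseudogenes Gm12854 and Gm7665, each at least 95% identical to it over 297 bases. Gm12854 had 496 counts in the control and 334 in the mrWNT2 library, and Gm7665 had 397 and 348. How reads were split among these copies is uncertain. With the copies added, S100a11 had 14173 and 9115 counts and was 1.48-fold lower.

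S100a6 (ENSMUSG00000001025) encodes calcyclin, a partner of the calcyclin-binding protein Cacybp and of several annexins. It had 14655 counts in the control and 10889 in the mrWNT2 library, or 1096 and 856 CPM, and 811 and 619 FPKM. The level in the mrWNT2 library was 1.28-fold lower (1.25 to 1.31; log2 ratio -0.36). This is close to the ratio of S100a8, and the interval of the difference between the log2 ratios of S100a6 and S100a8, -0.004 to 0.07, holds 0.

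S100a10 (ENSMUSG00000041959) encodes p11, which joins annexin A2 in a tetramer that binds plasminogen at the cell surface. It had 1004 counts in the control and 1021 in the mrWNT2 library, 75.1 and 80.3 CPM, and 62.7 and 65.5 FPKM. Its ratio was 1.07-fold higher with an interval of 0.979 to 1.17, so a difference was not detectable at this depth. S100a1 (ENSMUSG00000044080), best known from heart muscle, where it acts on the calcium pump Atp2a2 and the ryanodine receptor, had 482 and 426 counts and 52.5 and 47.7 FPKM. S100a13 (ENSMUSG00000042312), which takes part in the export of the signal-less cytokines Fgf1 and Il1a, had 428 and 396 counts and 45.3 and 43.0 FPKM. The log2 ratios of S100a1 and S100a13 were -0.11 (-0.30 to 0.09) and -0.04 (-0.24 to 0.16), so both intervals hold 0.

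By FPKM the members ran S100a9, S100a8, S100a11, S100a6, S100a10, S100a1, S100a13 and S100a4 in both libraries. Counts per length of the principal transcript gave the same order. By ratio they ran from S100a11, the lowest, through S100a6, S100a8, S100a9, S100a1 and S100a13 to S100a10. Among the 21 pairs of measured members, 15 had a log2 difference whose interval excluded 0 and 6 did not; these intervals use a log-normal approximation to the counting error. S100a11 differed from its neighbour S100a6 by 0.23 on the log2 scale (0.17 to 0.28) and from S100a10 at the other end by 0.68 (0.55 to 0.81). S100a6 and S100a8, S100a9 and S100a1, S100a1 and S100a13, and S100a13 and S100a10 were neighbours not separated by counting error.

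**Figure D2:**
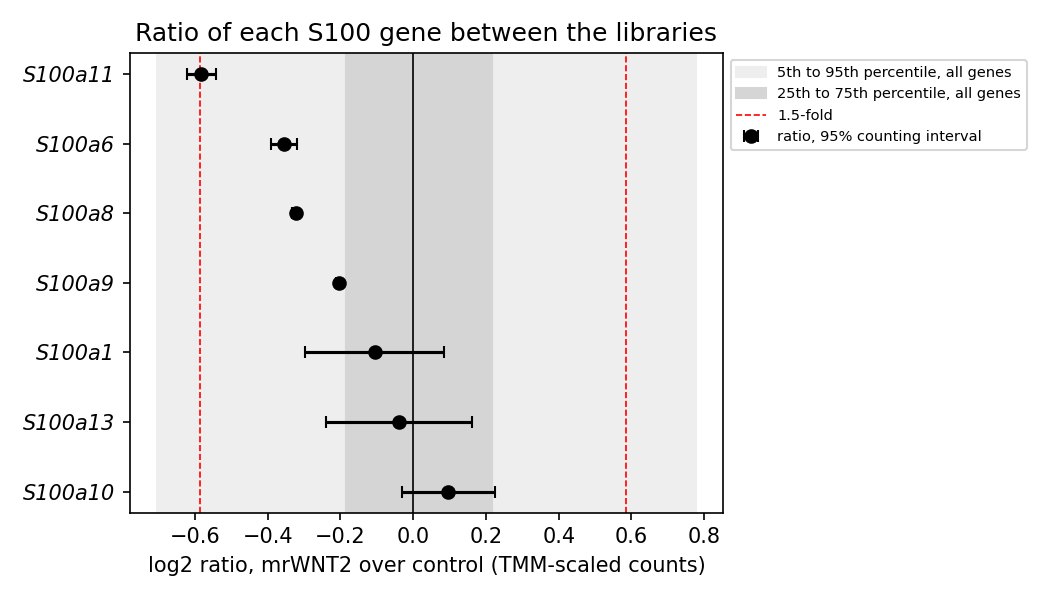
Log2 ratio of each of the 7 measured S100 genes, mrWNT2 over control (points), with the 95% counting interval (bars), the 1.5-fold lines (dashed) and the spread of all 12856 measured genes (grey bands). S100a11, S100a6, S100a8 and S100a9 lie below 0 with their intervals, while those of S100a1, S100a13 and S100a10 cross 0.

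S100a4 (ENSMUSG00000001020), a partner of the non-muscle myosin heavy chain Myh9 and the best known S100 gene of motile cells, had 2 counts in the control and 0 in the mrWNT2 library, or 0.259 and 0 FPKM. Both lie under the level that a count of 0 allows (3 counts, which is 0.224 CPM in the control and 0.236 CPM in the mrWNT2 library), so no ratio is given. The gene's model overlaps the read-through model Gm42674 (ENSMUSG00000105518, chr3:90601904-90605885), itself counted 0 times in both libraries. In the GENCODE M21 annotation 302 of the 584 exonic bases of S100a4 (51.7%), and 287 of its 303 coding bases, are also exon of Gm42674 on the same strand. No other member shares an exonic base with another gene on the same strand. A read on such a stretch belongs to 2 genes, and the sources used here do not give how the counting treated such reads. The effect on the S100a4 count was not tested, and the count is not read as the gene's level. The stretch of exon 3 of S100a4 shared with Gm42674 is shown to make the overlap plain (GRCm38, + strand, chr3:90605740-90605885, 146 bases, 5′ to 3′, all of it coding sequence, no capitals).
S100a4 shared exon: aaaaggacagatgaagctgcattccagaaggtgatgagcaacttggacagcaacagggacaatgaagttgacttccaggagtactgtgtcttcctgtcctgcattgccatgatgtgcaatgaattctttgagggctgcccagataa

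All 8 members lie on chromosome 3 (GRCm38). The first 6 fall within 185 kb: S100a1 (chr3:90511034-90514392, - strand), S100a13 (chr3:90514435-90524581, + strand), S100a4 (chr3:90603771-90606045, + strand), S100a6 (chr3:90612882-90624181, + strand), S100a8 (chr3:90668978-90670035, + strand) and S100a9 (chr3:90692632-90695721, - strand). S100a1 and S100a13 point away from each other with 42 bases between their gene models, and their ratios were not separated by counting error. S100a11 (chr3:93520488-93526287, + strand) and S100a10 (chr3:93555080-93564643, + strand) lie 2825 kb beyond S100a9, within 44.2 kb of each other. The member with the lowest ratio and the one with the highest thus lie side by side in this set of 8.

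Most genes around the members had 0 counts in both libraries, though some were well counted, such as Tpm3 with 8481 and 6957. With 500 kb added on each side the region held 169 other genes, of which 21 were measured and 128 had 0 counts in both libraries. Of the 21, 1 passed 1.5-fold upward and 1 downward, and 11 had a ratio below 1, with a median log2 ratio of -0.06. The pair past 1.5-fold, named here after their values were seen, were Slc27a3 with 10 and 23 counts and Tchh with 87 and 30. Between S100a1 and S100a9 lay 10 other genes, and 0 of them were measured.

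**Figure D3:**
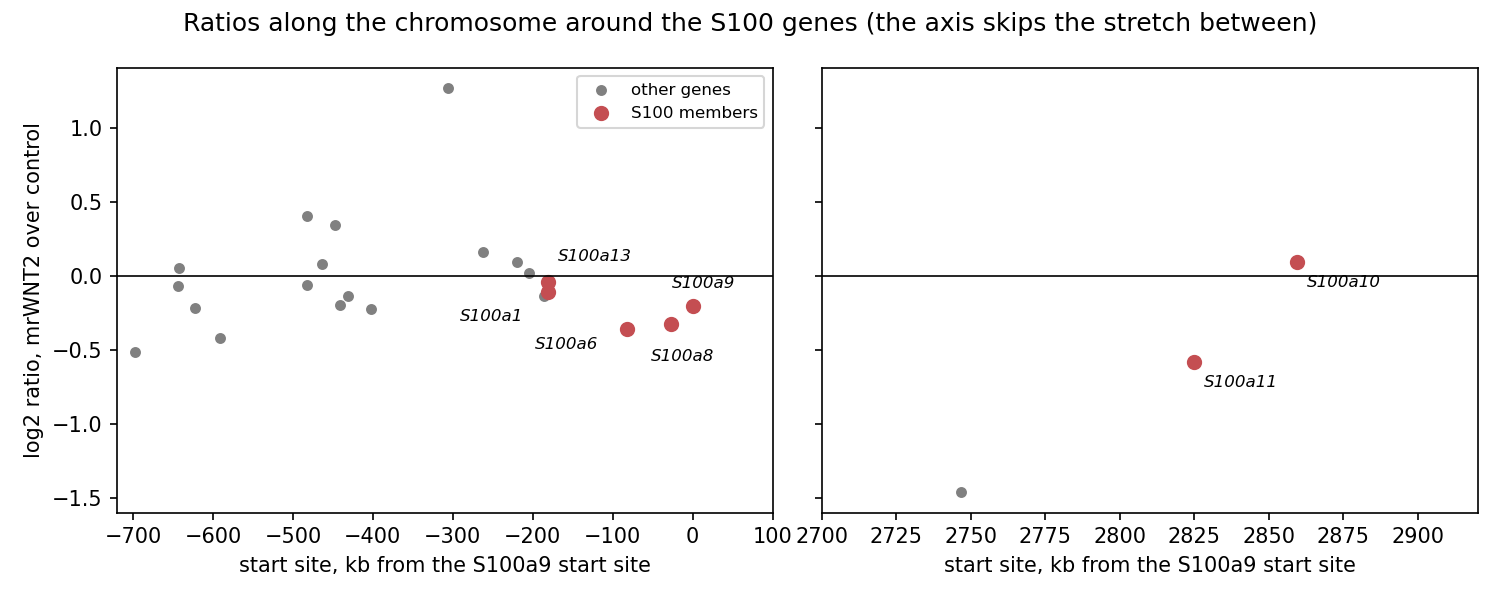
Log2 ratio, mrWNT2 over control, of measured genes against the distance of their start site from that of S100a9 in kb, for S100 members (large red points) and other genes (grey points); 25 of the 28 measured genes of the region are plotted, and 3 lie outside the 2 windows. S100a8 and S100a9 have no measured non-member between them and S100a1, and S100a11 and S100a10 lie side by side at -0.58 and 0.10.

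The promoters of the 4 members whose intervals lay below 1 are shown. These were also the 4 of the 8 with the most counts, and many counts give narrow intervals. The choice therefore does not mark them as a group that varies together. RefSeq (GRCm38.p6) gave a promoter for 7 of the 8 members; S100a10 has no entry. Each promoter's 250 bases before the RefSeq start were searched on both strands for 6 short motifs. The letters TTNNGNAA stood for a C/EBP-type site and GGANTTTCC for an NF-kB-type site. A PU.1-type site was searched as GAGGAA. An AP-1-type site was searched as TGANTCA. The TATA box was searched as TATAAA, and a GC box was taken to be GGGCGG. No 2 matches in a member's promoter overlapped. The stretches shown stop where the deposited gene model begins, so 93 bases of S100a8, 12 of S100a6 and 8 of S100a11 are left out. Bases in capitals mark the motif matches, on either strand, and each stretch reads 5′ to 3′ on the gene's own strand: S100a8 at chr3:90668821-90668977 (+ strand), S100a9 at chr3:90695722-90695971 (- strand), S100a11 at chr3:93520246-93520487 (+ strand) and S100a6 at chr3:90612644-90612881 (+ strand).
S100a8 promoter: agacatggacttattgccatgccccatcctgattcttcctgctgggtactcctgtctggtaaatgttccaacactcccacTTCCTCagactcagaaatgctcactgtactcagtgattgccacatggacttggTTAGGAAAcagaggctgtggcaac
S100a9 promoter: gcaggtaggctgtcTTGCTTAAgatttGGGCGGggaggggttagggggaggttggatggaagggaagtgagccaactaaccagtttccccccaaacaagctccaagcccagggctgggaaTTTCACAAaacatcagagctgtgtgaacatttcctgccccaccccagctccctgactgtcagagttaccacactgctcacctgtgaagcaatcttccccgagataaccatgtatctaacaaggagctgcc
S100a11 promoter: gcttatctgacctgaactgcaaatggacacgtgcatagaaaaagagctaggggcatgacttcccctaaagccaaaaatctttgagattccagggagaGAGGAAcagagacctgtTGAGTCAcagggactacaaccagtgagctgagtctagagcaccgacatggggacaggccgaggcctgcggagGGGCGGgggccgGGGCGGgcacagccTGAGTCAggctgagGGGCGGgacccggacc
S100a6 promoter: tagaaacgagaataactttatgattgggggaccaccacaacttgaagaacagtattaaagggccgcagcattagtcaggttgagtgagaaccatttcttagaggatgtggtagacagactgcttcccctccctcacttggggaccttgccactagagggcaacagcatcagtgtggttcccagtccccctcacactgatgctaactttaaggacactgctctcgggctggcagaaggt

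C/EBP-type matches were found in 2 of the 7 member promoters, those of the calprotectin genes. S100a8 had 1, at bases -117 to -110 from its RefSeq start, and S100a9 had 2, at -236 to -229 and -130 to -123. Of all 32851 promoters in the table, 36.8% held this motif, so 2 of 7 is not above the share of all promoters. S100a8 also had 2 PU.1-type matches (motif in 23.3% of promoters) and a TATA box at -30 to -25 (12.4%); the TATA box and the second PU.1-type match lie in the stretch not shown. The promoter of S100a11 held 1 PU.1-type match, 2 AP-1-type matches (6.75% of promoters) and 3 GC boxes (32.7%), and S100a9 held 1 GC box. S100a4 held a TATA box, and S100a1, S100a13 and S100a6 held none of the 6 motifs. The NF-kB-type motif, held by 1.07% of promoters, was in 0 of the 7. A match describes letters only and gives no sign of binding.

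The counts past 1.5-fold in the lists that follow stand beside 7.62% of all measured genes upward and 7.02% downward. Among genes averaging at least 10 CPM these shares were 4.12% and 2.95%. Of 10 transcription factors known to act on myeloid genes, all measured, 0 passed 1.5-fold upward and 1 downward, near the share of all genes, with a median log2 ratio of -0.12. Cebpe, which drives late granule genes, had 1950 counts in the control and 1378 in the mrWNT2 library and was 1.35-fold lower (1.26 to 1.44). Cebpa was 1.22-fold lower and Cebpd 1.19-fold lower, whereas Cebpb was 1.08-fold higher, each with an interval off 1. Spi1, which encodes PU.1, was 1.04-fold lower with an interval that holds 1. Irf8, a factor of the monocyte and dendritic lineages, was the one past the line, at 1.60-fold lower with 173 and 103 counts.

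Receptors and co-receptors of released S100 proteins were all measured, 10 of 10. Past 1.5-fold, 3 were higher and 1 was lower, and 6 lay between, with a median log2 ratio of -0.10. Cd14, the co-receptor that hands ligands to TLR4, had 1543 counts in the control and 2981 in the mrWNT2 library and was 2.03-fold higher (1.91 to 2.16). Tlr4 itself was 1.21-fold lower (1.13 to 1.30), with 1699 and 1335 counts. Ager, which encodes RAGE, was low, with 66 and 56 counts and an interval of 0.773 to 1.63 around a 1.12-fold lower value. Cd69, a lymphocyte and myeloid activation antigen that binds S100A8/S100A9, was 2.67-fold higher with 172 and 437 counts, and the fatty acid receptor Cd36 was 1.69-fold higher with 53 and 85. The adhesion molecule Alcam was 1.58-fold lower with 1714 and 1030 counts. Cd33, named after its values were seen, had the highest FPKM of the 10 in both libraries. It was 1.26-fold lower (1.24 to 1.29), with 28247 and 21259 counts. Of the 10, 4 had an interval above 1 and 4 one below 1, against 21% and 18.8% of all measured genes. The receptor genes thus went in both directions, while S100a8 and S100a9 were both lower.

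Annexins, the calcium-dependent membrane binders that S100 proteins join, were measured in 8 of 8 cases, and past 1.5-fold 0 were higher and 1 was lower. Anxa1, the partner of S100a11, had 19062 and 13359 counts and was 1.36-fold lower (1.33 to 1.39). Anxa2, the partner of S100a10, had 14938 and 13082 counts and was 1.09-fold lower (1.06 to 1.11). Anxa11, a partner of S100a6, was 1.60-fold lower, while Anxa5 and Anxa6 were each 1.30-fold higher. The median log2 ratio of the annexins was -0.13.

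Among other binding partners 10 of 13 genes were measured, and 2 passed 1.5-fold upward and 0 downward. Il1a, the cytokine exported with S100a13, had 76 counts in the control and 1440 in the mrWNT2 library. It was 19.9-fold higher (15.8 to 25.4), while S100a13 itself had an interval that holds a ratio of 1. Ppfibp1 (liprin beta 1, a partner of S100a4) was 1.64-fold higher and the scaffold Ahnak, a partner of the S100a10 and annexin A2 complex, 1.28-fold higher. The calcium pump gene Atp2a2, a target of S100a1, was 1.24-fold higher. Cacybp was 1.14-fold higher, against 1.28-fold lower for its partner S100a6. Myh9 had 34408 and 28549 counts and was 1.15-fold lower.

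In the plasminogen system, which the S100a10 complex serves, 5 of 8 genes were measured. The activator Plau was 1.39-fold lower with 968 and 663 counts, and its receptor Plaur 1.15-fold lower. Plgrkt, another plasminogen receptor, had an interval that holds 1, as had S100a10.

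The phagocyte oxidase genes, whose enzyme calprotectin supplies with arachidonic acid, were all measured (6 of 6) and 0 passed 1.5-fold. Cybb, the catalytic subunit, had 19511 and 22507 counts and was 1.21-fold higher (1.19 to 1.24). A list of 6 genes for granule and metal-handling proteins, some of which keep metals from microbes as calprotectin does, went in both directions. Past 1.5-fold, 2 of 6 were higher and 1 was lower. Slc11a1, a metal pump of the phagosome, was 1.72-fold higher, and the haemoglobin-binding Hp was 1.70-fold higher, with 14453 and 23384 counts. Ltf (lactoferrin) was 1.55-fold lower, with 153624 and 94081 counts, and Camp 1.32-fold lower.

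Of 19 other EF-hand genes, such as calmodulin and actinin genes, all were measured and 0 passed 1.5-fold in either direction. Their median log2 ratio was 0.05. The best separated by counts within the rule for naming were Chp1, 1.25-fold lower with 5236 and 3990 counts, and Calu, 1.23-fold higher with 1888 and 2207.

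**Figure D4:**
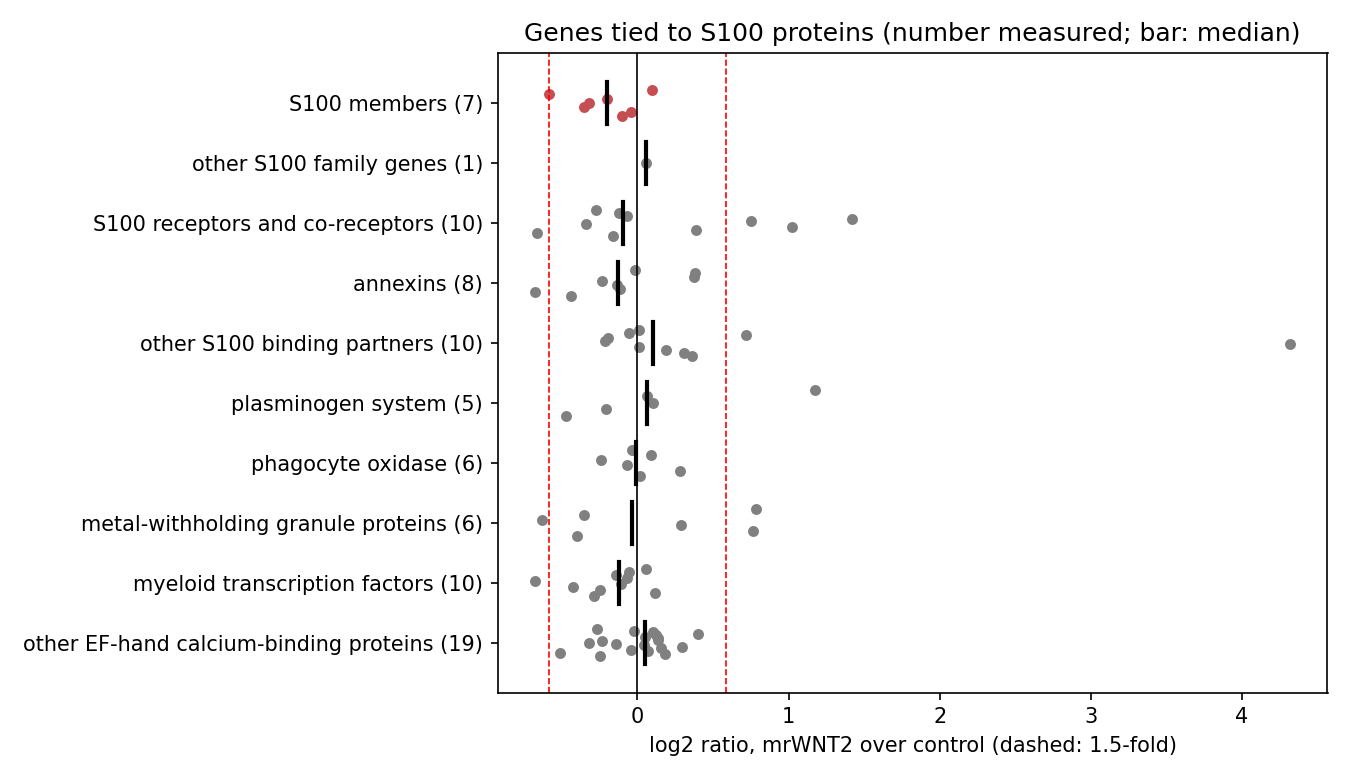
Log2 ratio, mrWNT2 over control, of the measured genes of each list (points; number measured in brackets) with the list's median (bar) and the 1.5-fold lines (dashed). The 7 S100 members have a median of -0.20; the outermost point, at 4.32, is Il1a.

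The rest of the S100 family had few counts. The table holds 19 rows whose name starts with S100, of which 11 are not among the members. Of these, 10 had at most 10 counts in each library and 3 (S100a16, S100z and S100a11-ps) had 0 in both. S100a5 had 4 counts in the control and 10 in the mrWNT2 library, S100a3 had 5 and 1, and S100a7a had 4 and 3. S100a14 had 0 and 2, S100a2 had 4 and 2, and S100b and S100g had 1 and 0 each. The one well-counted row was S100pbp, with 236 and 233 counts; it encodes a protein that binds S100P and is no S100 protein itself. These counts give ratios too loose to place against those of the members. Together the 11 rows held 255 counts in the control and 251 in the mrWNT2 library, against 579470 and 461003 for the members.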

How the data were processed

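RNA-seq was read for 2 libraries, 1 per group. Per the submitters' processing notes, the authors used HISAT2 2.0.5 and featureCounts 1.5.0-p3, with CASAVA 1.8, fastp and DESeq2 1.20.0, on GRCm38 (mm10); annotation release and strand setting are not given in the sources used here. The deposited files hold raw counts per gene and the authors' FPKM. Over 10078 genes with more than 50 counts in both libraries, the deposited FPKM ratios matched DESeq2-scaled counts.

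CPM used TMM factors (edgeR 4.0.16, R 4.3.3; 0.992 control, 1.01 mrWNT2), with no pseudocount. Genes were kept at a mean of at least 1 CPM. Ratios carry exact 95% Clopper-Pearson intervals from the 2 counts, and differences between members log-normal ones. Reaching 1.5-fold was counted, with no test. The code was tested on simulated data. Overlaps came from GENCODE M21, copies from BLAST 2.17.0+ (at least 95% identity over 100 bases), promoters from RefSeq. Alternatives were DESeq2 1.42.0 size factors, library totals, upper quartile factors, FPKM, other minima and other denominators.

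Named genes are the members, other S100 rows, the 4 largest ratios of each list among measured genes, and Anxa2, Anxa1, Myh9, Cacybp, Tlr4, Ager, Il1a, Cebpb, Cebpd, Cebpe, Spi1, Cybb and Ltf. Marker and neighbouring genes, and Cd33, were named after their values were seen. Some genes the rule takes are not reported here. Members and lists were chosen with earlier results of these data known.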

Additional observations from a re-analysis of the deposited data

How the results depend on the processing

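The log2 ratio of S100a13 changed sign, from -0.04 to 0.03, when scaled by the median of genes with at least 1000 CPM; the other 6 measured members kept theirs under every alternative run. Scaling placed the median of all genes between -0.04 and 0.09 (log2). S100a9 (-0.20) had a log2 ratio of -0.24 with DESeq2 size factors or the deposited FPKM, -0.18 with library totals and -0.26 with upper quartile factors; S100a8 (-0.32) had -0.36, -0.30 and -0.38. Upper quartile factors gave S100a6 -0.41 and S100a11 -0.63. Scaling by the median of genes with at least 1000 CPM, chosen after seeing the data, gave -0.25 for S100a8, -0.14 for S100a9, -0.29 for S100a6 and -0.51 for S100a11, and a median over members of -0.14; library totals gave a median of -0.18. DESeq2 size factors, upper quartile factors and FPKM each put 1 member (S100a11) at least 1.5-fold lower. Leaving the 10 most abundant non-member genes out of the total raised the members' share to 4.97% and 4.19%. S100a8 over S100a9 was 0.621 and 0.572 in counts, and 0.663 and 0.611 by principal transcript length, which was added after seeing the data, as was counting S100a11 with its copies. Between the outermost members alone, 0 other genes were at least 1.5-fold higher. Of the 108 alternative values 82 were taken as unchanged. Ratios and shares had to stay within the main interval, and counts within 1.5 times the main count. The median over members (-0.20) falls under neither rule, and its values were not sorted by distance. For it, -0.26 was taken as unchanged and -0.18 as changed. Many of the 82 were small counts of listed genes, often 0, with little room to change. Every change of library scaling took the log2 ratios of S100a8 and S100a9 outside their counting intervals.

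No paired analysis was possible because the labels give no replicate numbers and each group has 1 library, and leaving out a replicate was likewise not possible. At 13474453 and 12621110 counts the members' counting error is small, and the spread between cultures is unknown. S100a4 cannot be read at its count, and the S100a1, S100a13 and S100a10 intervals do not show that their levels were equal.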
